A study of Bos taurus with 17 samples.

Results

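The 10 genes described here are messenger RNAs transcribed from the bovine mitochondrial genome, namely ND1, ND2, ND4, ND5, ND6, COX1, COX2, COX3, CYTB and ATP6. They were taken by symbol from a table of 17167 genes, and all 10 were found and were expressed highly enough to be tested. The same table holds rows for the other 3 mitochondrial messenger RNAs, ND3, ND4L and ATP8, which are given beside their neighbours. The RNA came from 17 pools of in vitro morulae, 10 embryos to a pool, and was sequenced with a kit that selects messenger RNA and marks strand. Of these pools, 8 had received recombinant WNT5A, a secreted signalling protein, and 9 were labelled control, at the same morula stage. The labels state neither dose, duration, breed nor whether each pool stems from its own round of fertilisation, and p-values therefore measure only pool-to-pool spread, which may be technical.

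Mitochondrial DNA is transcribed as long RNAs that cover many genes, and cutting at the transfer RNAs that lie between genes releases the messengers. All members encode membrane subunits of the respiratory chain or of ATP synthase, which are assembled with many subunits made from nuclear genes. The early embryo lives largely on mitochondria inherited from the oocyte, and mitochondrial DNA replication is low through the first cleavages in mammals.

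The libraries differed in depth. Library totals, recovered from the deposited values, were 34.0 to 200.1 M reads in WNT5A pools and 125 to 162 M in control pools. These totals cover only reads assigned to the 17167 deposited genes, and shares of reads are shares of them. WNT5A libraries 4, 12 and 14 had 34.0, 45.5 and 52.4 M, while the other 5 WNT5A libraries had 140 to 200.1 M. Control libraries 2, 3 and 6 detected 10055, 11127 and 11268 genes, against 13587 to 15430 in the other 6 controls. These 6 libraries were set apart by reads or by genes detected and not by mitochondrial values, and results are given with and without them. The embryo genes POU5F1, CDX2, GATA6, GATA3, TFAP2C, KRT18 and CDH1 had reads in all 17 libraries and NANOG in 16. Together these 8 genes summed to 2542 to 3719 RPKM in WNT5A pools and 2817 to 3283 RPKM in control pools. GATA3 ran between 0.0832 and 62.1 RPKM and NANOG between 0 and 17.6 RPKM. The 15 cumulus and granulosa cell genes in the table summed to 3.21 to 9.45 RPKM in WNT5A pools and 4.87 to 20.8 RPKM in control pools. Among them FOXL2 reached 17.7, DCN 13.4, AMH 7.76 and STAR 7.41 RPKM, STAR had reads in all 17 libraries, and FSHR had reads in 7 and at most 1.30 RPKM. The 9 oocyte genes in the table summed to 6.31 to 23.6 RPKM in WNT5A pools and 3.17 to 46.6 RPKM in control pools, and 4 blood and immune genes to 7.49 to 13.4 RPKM in WNT5A pools and 7.71 to 33.7 RPKM in control pools. AIF1, a macrophage gene, had a log2 difference of -1.18 ± 0.41 (SE; adjusted p = 0.673 by limma). The part of other cell types in the results was not tested. RPKM scales reads to both the length of the gene and the size of the library, so that levels of different genes can be set side by side. It corrects neither for reads in overlaps of genes nor for how well the kit selects each messenger. The order of levels given below carries these limits.

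On the mitochondrial chromosome the members are packed closely, at positions given here as in the deposited table for assembly ARS-UCD1.2. ND1 (ENSBTAG00000043558) covers bases 3101 to 4056, ND2 (ENSBTAG00000043571) 4266 to 5307, COX1 (ENSBTAG00000043561) 5687 to 7231, COX2 (ENSBTAG00000043556) 7374 to 8057, ATP6 (ENSBTAG00000043584) 8290 to 8970 and COX3 (ENSBTAG00000043560) 8970 to 9750. ND4 (ENSBTAG00000043577) covers bases 10529 to 11906, ND5 (ENSBTAG00000043563) 12109 to 13929, ND6 (ENSBTAG00000043546) 13913 to 14440 and CYTB (ENSBTAG00000043550) 14514 to 15653. Each is listed as 1 unbroken interval, 9 on the plus strand and ND6 alone on the minus strand. ATP6 shares 40 bases with ATP8 and 1 base with COX3, ND4 shares 7 with ND4L, and ND5 shares 17 with ND6. Thus 5 of the 10 overlap a neighbouring messenger. The sources used here do not say how reads in these overlaps were assigned. The lengths of ND1, ND2, COX3 and ND4 are not multiples of 3, and in mammals stop codons of some mitochondrial messengers are completed by the poly(A) tail. The ND6 messenger of human mitochondria is known to lack a stable poly(A) tail, and the kit used here selects poly(A) RNA.

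With WNT5A none of the 10 messengers passed an adjusted p of 0.05 (limma on log2(RPKM + 1), adjusted over 12415 tested genes), and 1 gene, or 0.00805% of all tested, passed it in the whole table. None passed at an unadjusted p of 0.05 either, a level reached by 7.35% of all tested genes. Fitted values were above 0 for 8 members and below 0 for COX3 and CYTB, where 62.3% of all tested genes were above 0. After quantile normalisation 7 members were above 0 and COX3, CYTB and ATP6 below, where 48.4% of tested genes were above 0. The median log2 difference of the members was 0.13, and that of all tested genes 0.11. Ranges of the groups overlapped for all 10 members, as they did for all but 0.0161% of tested genes. In the authors' deposited table every member had an FDR of 0.9997, and the log2 fold changes ran between -0.10 for COX3 and 0.39 for ND1.

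Summed over the 10 members, mitochondrial messengers took 1.70% ± 0.768 of reads in WNT5A pools (SD, n = 8) and 1.49% ± 0.546 in control pools (SD, n = 9). In WNT5A pools the share was lowest at 0.909%, had a median of 1.47% and was highest at 2.89%. In control pools the lowest was 0.843%, the median 1.53% and the highest 2.60%. The difference of 0.21 percentage points was smaller than either SD, and as a share of summed RPKM the members took 2.55% ± 0.781 with WNT5A (SD, n = 8) and 2.61% ± 0.762 in controls (SD, n = 9). Leaving out 1 library moved the difference in share of reads to between 0.0361 points, without WNT5A library 12, and 0.344 points, without control library 6. It was -0.31 points without WNT5A libraries 4, 12 and 14, and -0.0955 points without those and control libraries 2, 3 and 6. WNT5A libraries 4, 12 and 14 held 2.56%, 2.89% and 2.21% of reads, the 3 highest shares among WNT5A pools, and the other 5 averaged 1.19% ± 0.320 (SD). By share of summed RPKM this ranking did not hold. Libraries 4, 12 and 14 then had 4.10%, 2.29% and 3.14%, and WNT5A library 10 had 2.88%, above library 12. Among controls, library 6 held 2.60% of reads, library 10 held 1.93%, and libraries 1 and 9 held 0.843% and 0.919%. Control libraries 2, 3 and 6 averaged 1.91% ± 0.595 and the other 6 controls 1.28% ± 0.420 (SD). In pools of whole embryos, more mitochondrial RNA per cell and less of other RNA cannot be told apart.

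COX3, a core subunit of complex IV (cytochrome c oxidase, the last enzyme of the chain), was the most abundant member in all 17 libraries. It ranged in WNT5A pools between 3906 and 7579 RPKM with a median of 5870 RPKM, and in control pools between 3135 and 11668 RPKM with a median of 6821 RPKM. Its log2 difference was -0.08 ± 0.22 (SE; adjusted p = 0.926 by limma). Control library 6 stood highest and control library 9 lowest, so the WNT5A pools lay inside the range of the controls. COX1, which holds the oxygen-reducing centre of the enzyme, averaged 1859 ± 964 RPKM in WNT5A pools (SD, n = 8) and 1536 ± 655 RPKM in control pools (SD, n = 9), a log2 difference of 0.20 ± 0.29 (SE; adjusted p = 0.855 by limma). COX2, which takes electrons from cytochrome c, averaged 2195 ± 864 RPKM with WNT5A (SD, n = 8) and 1977 ± 822 RPKM in controls (SD, n = 9), a log2 difference of 0.16 ± 0.25 (SE; adjusted p = 0.869 by limma). COX2 was above COX1 in all 17 libraries.

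ATP6, the ATP synthase subunit beside the rotating ring, had the second highest level in all 17 libraries. In WNT5A pools it ranged between 1697 and 6229 RPKM with a median of 2736 RPKM, and in control pools between 1483 and 6387 RPKM with a median of 3093 RPKM. Its log2 difference was 0.10 ± 0.29 (SE; adjusted p = 0.931 by limma). ATP8, the short gene just upstream that overlaps it, stood at 347 ± 91.1 RPKM with WNT5A (SD, n = 8) and 390 ± 139 RPKM in controls (SD, n = 9). The 2 are translated in mammals from a shared messenger, and ATP8 was at 0.114 ± 0.0317 of the ATP6 level in WNT5A pools and 0.130 ± 0.0117 in controls (SD).

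CYTB, the mitochondrially encoded subunit of complex III, ranged in WNT5A pools between 624 and 1584 RPKM with a median of 1054 RPKM. In control pools it ranged between 617 and 2514 RPKM, with a median of 1057 RPKM. Its log2 difference was -0.07 ± 0.25 (SE; adjusted p = 0.947 by limma). The medians of the groups lay close together, and control library 6 stood above the next highest control, at 1485 RPKM, and above all WNT5A pools.

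ND1 and ND4, membrane subunits of complex I (NADH dehydrogenase, where electrons enter the chain), had the highest fitted values. ND1 in WNT5A pools ran between 217 and 1835 RPKM with a median of 415 RPKM, and in control pools between 187 and 1203 RPKM with a median of 370 RPKM. Its log2 difference was 0.49 ± 0.43 (SE; adjusted p = 0.768 by limma), and 0.24 to 0.69 on leaving out 1 library. ND4 in WNT5A pools ran between 436 and 3697 RPKM with a median of 746 RPKM, and in control pools between 378 and 1706 RPKM with a median of 767 RPKM, a log2 difference of 0.43 ± 0.39 (SE; adjusted p = 0.775 by limma), and 0.17 to 0.61 on leaving out 1 library. The median of ND4 was lower in WNT5A pools while the mean was higher, at 1428 RPKM against 831 RPKM in controls, with 2836, 3697 and 1897 RPKM in WNT5A libraries 4, 12 and 14. These were the only 3 WNT5A values of ND4 above all 9 controls.

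The other complex I members had smaller fitted values. ND2 averaged 778 ± 517 RPKM in WNT5A pools (SD, n = 8) and 579 ± 268 RPKM in control pools (SD, n = 9), a log2 difference of 0.30 ± 0.32 (SE; adjusted p = 0.799 by limma). ND5 averaged 389 ± 214 RPKM with WNT5A (SD, n = 8) and 351 ± 158 RPKM in controls (SD, n = 9), a log2 difference of 0.09 ± 0.28 (SE; adjusted p = 0.944 by limma). ND6, the only member on the minus strand, ran between 206 and 1254 RPKM in WNT5A pools with a median of 420 RPKM, and between 202 and 1287 RPKM in controls with a median of 427 RPKM. Its log2 difference was 0.08 ± 0.35 (SE; adjusted p = 0.958 by limma). ND6 was above ND5 in 16 of 17 libraries. The strand setting of the counting is not stated in the labels, and without strand, reads of ND6 and of plus-strand RNA across it cannot be told apart.

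**Figure D1:**
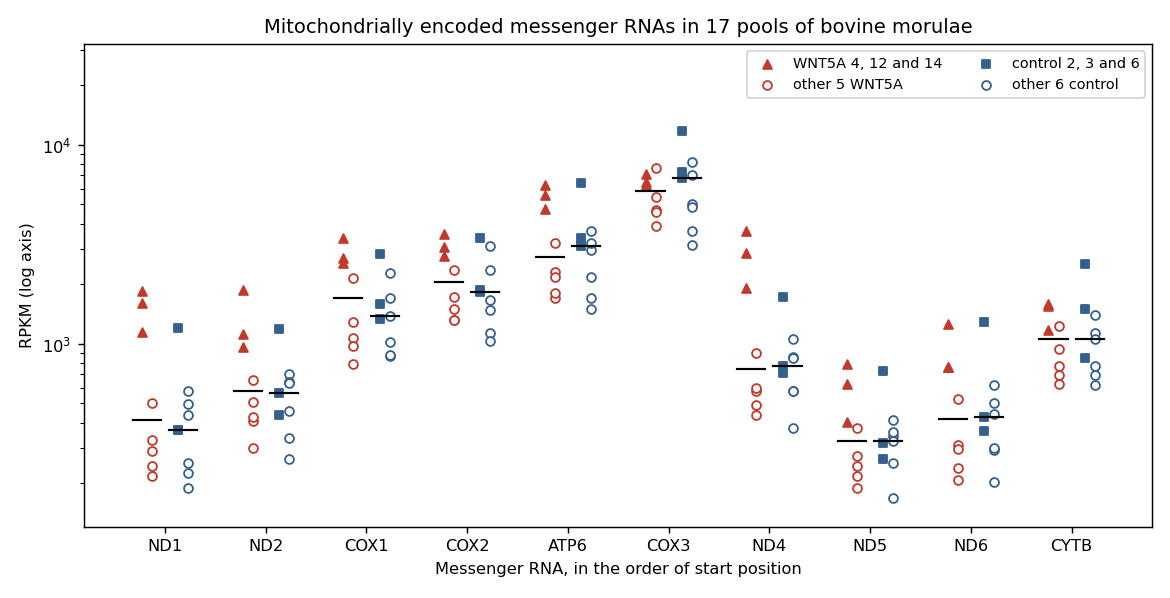
RPKM of the 10 messengers (log axis) in the 8 WNT5A libraries (red, left of each pair) and the 9 control libraries (blue, right), in the order of start position, with black lines at group medians. WNT5A libraries 4, 12 and 14 (triangles) lie above the other 5 WNT5A libraries for 8 messengers, and control library 6 is the highest blue point for all 10.

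The order of levels was close to the same in both groups. In control pools the means fell in the order COX3, ATP6, COX2, COX1, CYTB, ND4, ND2, ND6, ND1 and ND5, and in WNT5A pools ND4 stood before CYTB and ND1 before ND6. Without WNT5A libraries 4, 12 and 14, the other 5 WNT5A libraries had the order of the controls. CYTB was then above ND4 in 5 of 5, and ND6 and ND1 were nearly equal, at 315.7 and 315.4 RPKM. The upper member of each neighbouring pair was higher in 9 of 9 controls for COX3 over ATP6, ATP6 over COX2, COX2 over COX1, CYTB over ND4 and ND4 over ND2. It was higher in 8 of 9 for COX1 over CYTB, ND2 over ND6 and ND1 over ND5, and in 7 of 9 for ND6 over ND1. ND6 and ND1 differed by a mean log2 ratio of 0.13 ± 0.17 (SD), so this pair was not separated beyond its spread, whereas COX3 and ATP6 differed by 1.06 ± 0.19 (SD). In WNT5A pools the mean log2 ratio of ND4 over CYTB was 0.03 ± 0.78 (SD), with ND4 higher in 3 of 8 libraries, and that of ND2 over ND1 was 0.25 ± 0.48 (SD), so neither pair was separated.

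Between controls the levels of the members varied more than their shares of the members' summed RPKM. In controls the coefficient of variation of RPKM was 40.8% to 67.4% per member, and that of each member's share of the summed RPKM was 7.22% to 26.3%. By RPKM, library 6 was the highest control for all 10 members and library 1 the lowest for 8, with COX2 and COX3 lowest in library 9. Library scaling differed, since RPKM times kilobases summed over genes to 1.145 M in control library 6. That sum was 0.957 M in control library 1 and 0.946 M in control library 9. As a share of reads, COX2 was higher in control library 10, at 0.207%, than in control library 6, at 0.203%. Among WNT5A pools library 12 was highest for 8 members, library 1 lowest for 6 and library 11 lowest for 3. In WNT5A pools the coefficient of variation of the shares was 8.28% to 48.9%, and for COX3 it was 23.6%, beside 22.7% for its RPKM. The SE of the fitted changes was 0.22 to 0.43. Counting error was small beside it, since the fewest reads of any member in any library were 14425, a counting error of 0.833%.

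The 3 WNT5A libraries with fewest reads differed from the other 5 in which messengers were high. All 3 were above all of the other 5 for 8 of 10 members, where 11.1% of all tested genes showed this, and the exceptions were COX3 and CYTB. By means, 7 of 10 members were at least 2-fold higher, a level reached by 10.1% of all tested genes. ND1 averaged 1525 ± 350 RPKM in libraries 4, 12 and 14 and 315 ± 112 RPKM in the other 5 (SD), a ratio of 4.84. ND4 averaged 2810 ± 900.3 RPKM in libraries 4, 12 and 14 and 599 ± 178 RPKM in the other 5 (SD), a ratio of 4.69. For ND6 the ratio was 2.94, for ND2 2.85, for ATP6 2.48, for ND5 2.33, for COX1 2.31 and for COX2 1.91. CYTB had a ratio of 1.68, and COX3 of 1.26, at 6621 ± 438 RPKM in libraries 4, 12 and 14 and 5245 ± 1418 RPKM in the other 5 (SD).

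The neighbours that are not among the 10 spread further. ND4L, which lies just upstream of ND4 and is translated with it from a shared messenger in mammals, averaged 2087 ± 848 RPKM in WNT5A libraries 4, 12 and 14 and 184 ± 51.9 RPKM in the other 5 (SD), a ratio of 11.4. Its controls ran between 124 and 386 RPKM. ND3, whose gene precedes ND4L, had a ratio of 1.34, at 109 ± 15.7 RPKM in libraries 4, 12 and 14 and 81.2 ± 26.6 RPKM in the other 5 (SD), and ATP8 had 1.40. Both overlapped between these sets of libraries. High and low ratios thus lay side by side along the chromosome, with COX3 and ND3 before ND4L and ND4.

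**Figure D2:**
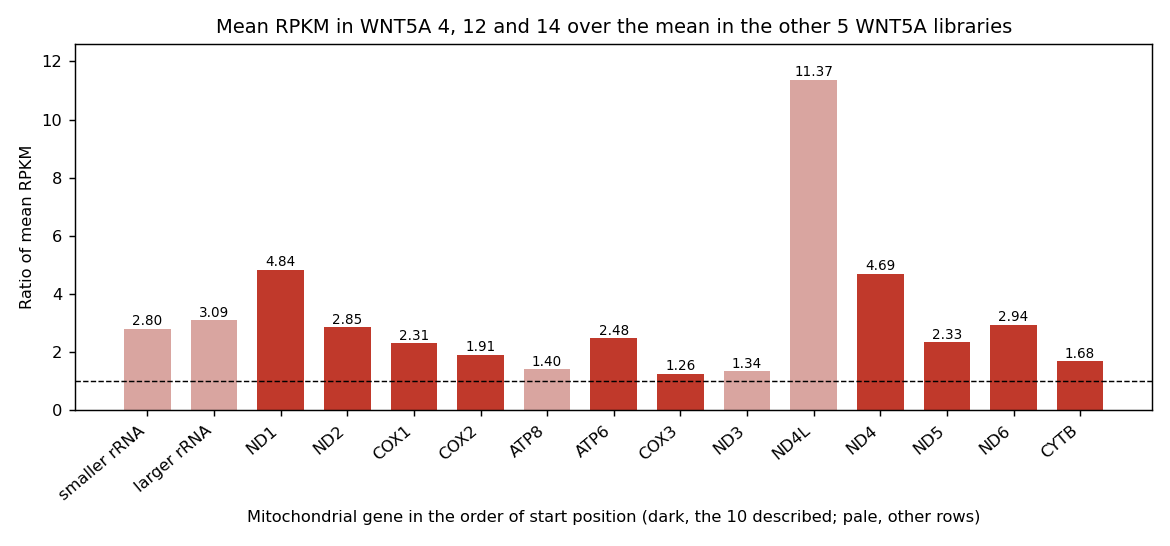
Mean RPKM in WNT5A libraries 4, 12 and 14 (n = 3) divided by the mean in the other 5 WNT5A libraries, for 15 mitochondrial genes in the order of start position; the dashed line marks equal means. ND4L reaches 11.4, ND1 and ND4 lie between 4.69 and 4.84, and COX3, ND3 and ATP8 lie at 1.26 to 1.40.

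The make-up of the mitochondrial messenger pool differed in these libraries. COX3 made up 24.4%, 21.2% and 29.7% of the summed RPKM in WNT5A libraries 4, 12 and 14, against 38.9% to 42.5% in the other 5 WNT5A libraries and 33.6% to 41.8% in the 9 controls. ND4 made up 7.92% to 12.1% in libraries 4, 12 and 14, against 3.97% to 5.06% in the other 5 and 4.001% to 6.22% in controls. ND1 made up 4.79% to 6.22% there, against 1.98% to 2.58% in the other 5 and 2.02% to 3.66% in controls. For these 3 members libraries 4, 12 and 14 did not overlap any of the other 14 libraries. The 5 complex I members together took 26.5% ± 4.59 in libraries 4, 12 and 14 and 14.8% ± 1.78 in the other 5 (SD), and 15.9% ± 2.87 in controls (SD, n = 9). Not all complex I members separated libraries 4, 12 and 14 from the other 5. The shares overlapped for ND2 (4.03% to 6.04% against 2.73% to 4.31%) and ND5 (1.69% to 2.57% against 1.72% to 2.31%). ATP6, outside complex I, was higher without overlap, at 19.7% to 21.7% against 15.5% to 18.3%. The share of COX1 overlapped too. That of COX2 also overlapped, at 11.7% ± 1.03 in libraries 4, 12 and 14 and 12.5% ± 0.981 in the other 5 (SD). No member's share separated the other 5 WNT5A libraries from the controls.

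**Figure D3:**
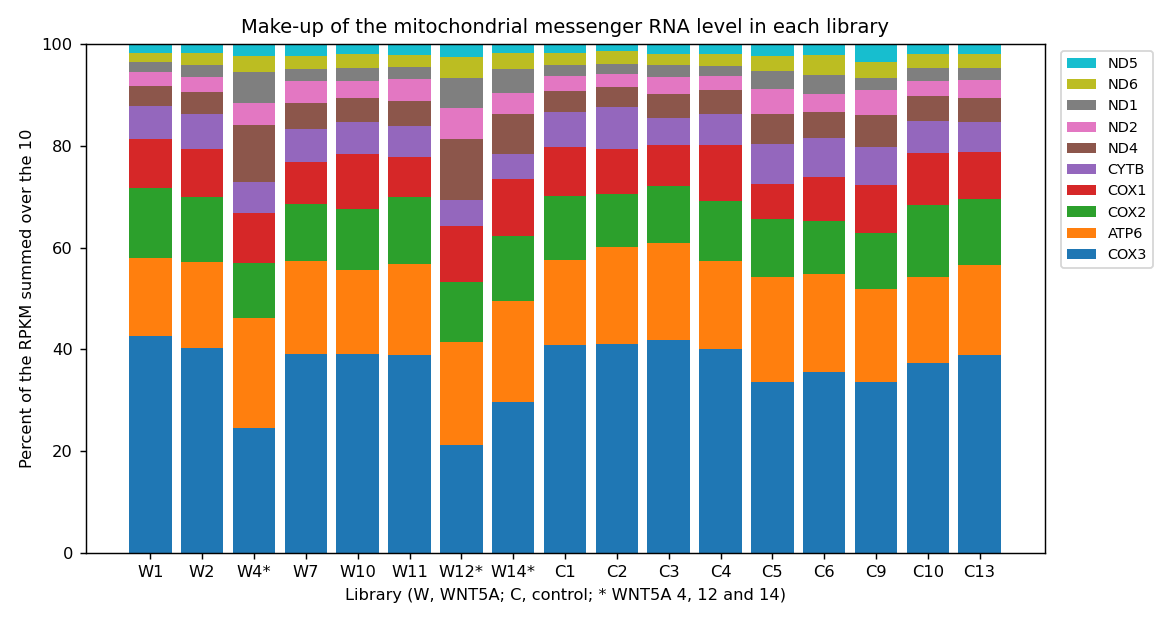
Share of each messenger in the RPKM summed over the 10, per library, with the 8 WNT5A libraries at the left and the 9 controls at the right. In the starred libraries COX3 (lowest segment) takes 21.2% to 29.7%, and in all other libraries 33.6% to 42.5%.

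Ratios within a library were taken from the same RPKM values as the shares, with ND4L and ATP8 added, and so are not a separate check. Like the shares, they do not depend on how libraries were scaled. ND4 over ND5 was 4.54 to 4.69 in WNT5A libraries 4, 12 and 14, against 2.19 to 2.38 in the other 5 and 1.79 to 2.73 in controls. ATP6 over COX3 was 0.665 to 0.960 in libraries 4, 12 and 14, against 0.364 to 0.468 in the other 5 and 0.405 to 0.609 in controls. ND4L over ND4 was 0.623 to 0.781 in libraries 4, 12 and 14, against 0.276 to 0.327 in the other 5 and 0.226 to 0.340 in controls. These 3 ratios were higher in each of libraries 4, 12 and 14 than in any of the other 14, as were ND4 over COX3 and ND1 over COX3, and ATP8 over ATP6 was lower in each. Other ratios overlapped. COX1 over COX2 was 0.879 to 0.955 in libraries 4, 12 and 14, against 0.599 to 0.910 in the other 5 and 0.616 to 0.935 in controls. ND5 over ND6 and CYTB over ND5 also overlapped the other 5, and ND1 over ND2 was 0.992 to 1.43 in libraries 4, 12 and 14 and overlapped the controls, which reached 1.02. These libraries also had the fewest reads, and what part depth had in these ratios was not tested.

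**Figure D4:**
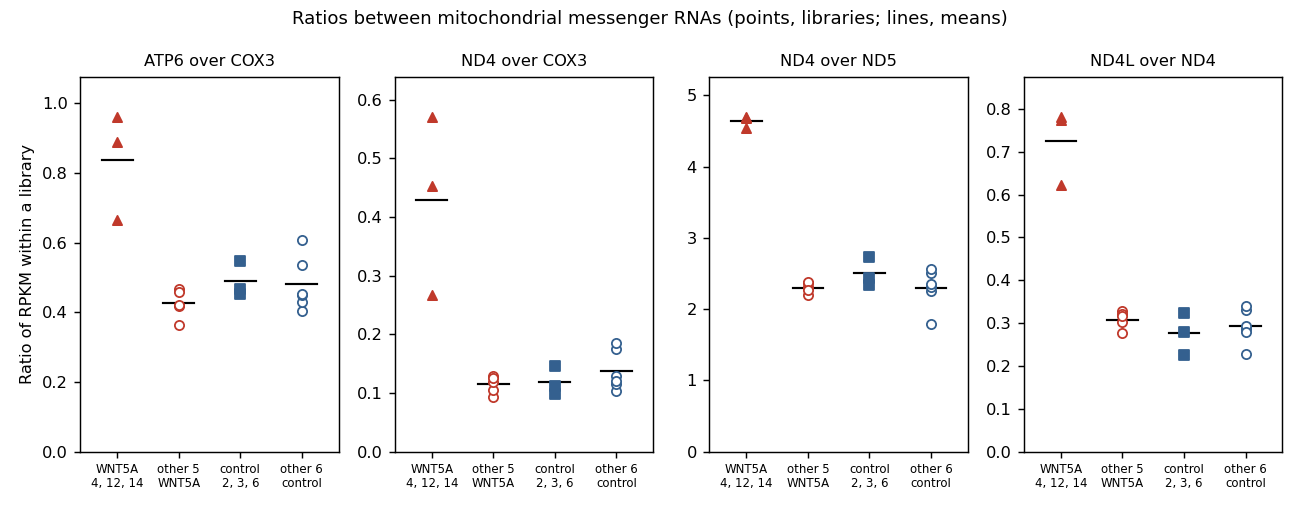
Ratios of RPKM between messengers within each library, with points for libraries and lines for means, in WNT5A libraries 4, 12 and 14, the other 5 WNT5A libraries, control libraries 2, 3 and 6 and the other 6 controls. In these 4 panels the triangles lie above all other points.

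Control libraries 2, 3 and 6 had higher means than the other controls, and no member's share separated them. The ratio of their means to those of the other 6 was 1.32 (COX2) to 1.79 (ND1), with all 10 members above 1, but all 3 libraries were above all 6 others for none of the members, where 2.45% of tested genes showed this. COX3 held 39.4% ± 3.46 of the summed RPKM in these 3 and 37.4% ± 3.17 in the other 6 (SD). Control library 6 was the highest of the 3 for every member. Without it the ratio of means was 0.933 (ND5) to 1.33 (COX3), with 8 of 10 members above 1. ND1 stood there at 1203 RPKM, against 370 and 369 RPKM in control libraries 2 and 3.

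The sign of the fitted WNT5A difference turned on these libraries. The members rose and fell together (Spearman 0.794 to 0.988 with their own mean), so their signs are not independent of each other in any fit here. Without WNT5A libraries 4, 12 and 14, all 10 members had a fitted value below 0, as did 34.3% of all tested genes. The values lay between -0.52 ± 0.33 for ND6 and -0.20 ± 0.26 for COX2 (SE), and none passed (smallest adjusted p = 0.994 by limma). Without control libraries 2, 3 and 6, all 10 were above 0, as were 50.8% of tested genes, and ND1 had the highest, 0.73 ± 0.46 (SE; smallest adjusted p = 0.913 by limma). Without all 6, values lay between -0.29 for ND6 and 0.02 for COX3, 9 of them below 0 as were 44.2% of tested genes, with SE of 0.22 to 0.30. Between the 5 WNT5A and 6 control libraries that remained, the ratios of means were 0.804 to 0.986.

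**Figure D5:**
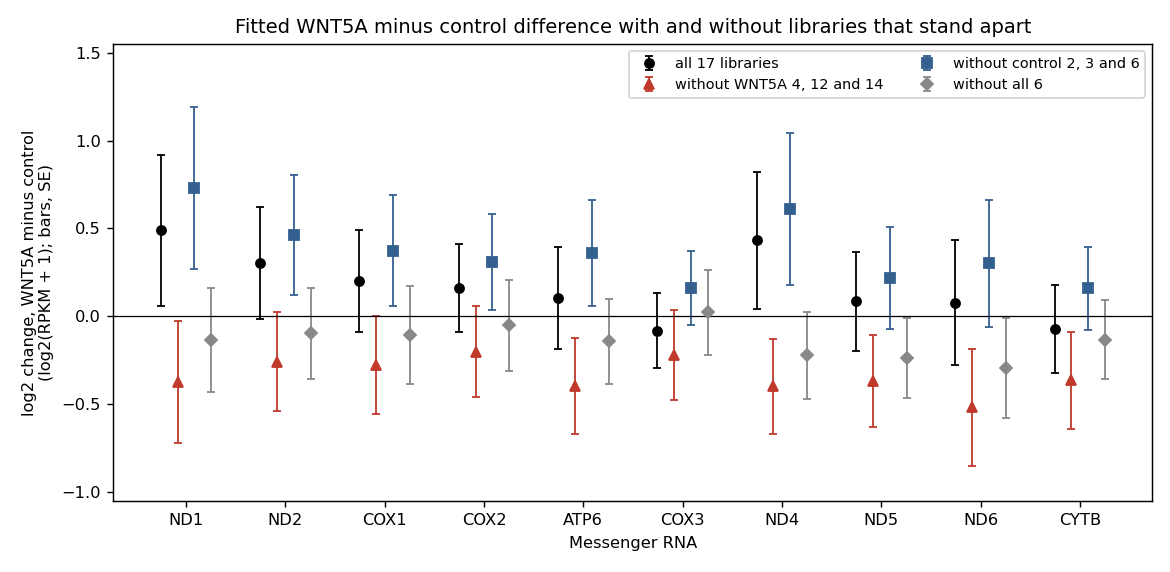
Fitted log2 change, WNT5A minus control, with SE, for each messenger with all 17 libraries, without WNT5A libraries 4, 12 and 14, without control libraries 2, 3 and 6, and without all 6. The red triangles lie below 0 for all 10 messengers and the blue squares above 0 for all 10.

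The table also held unnamed rows with the start, end and length of mitochondrial ribosomal and transfer RNA genes in RefSeq (assembly ARS-UCD2.0), where all 13 messengers matched likewise. These rows were picked by position, after values were seen. The row for the larger ribosomal RNA (ENSBTAG00000043570) averaged 2239 ± 1447 RPKM in WNT5A pools (SD, n = 8) and 1399 ± 678 RPKM in controls (SD, n = 9), a log2 difference of 0.54 ± 0.33 (SE; adjusted p = 0.717 by limma). The smaller (ENSBTAG00000043567) averaged 1939 ± 1143 RPKM with WNT5A (SD, n = 8) and 1604 ± 855 RPKM in controls (SD, n = 9). Both were above all of the other 5 WNT5A libraries in libraries 4, 12 and 14, with ratios of means of 3.09 and 2.80. Of 5 transfer RNA rows, all on the minus strand, ENSBTAG00000043545 had no reads in WNT5A libraries 4, 12 and 14, where 3 reads would be 0.811 to 1.18 RPKM. It stood at 2.58 to 9.72 RPKM in the other 5 WNT5A libraries and 2.69 to 22.3 RPKM in controls. This row covers bases 7229 to 7299 and overlaps the end of COX1, at base 7231 on the plus strand. The kit selects poly(A) RNA, so how well reads of these 5 rows measure transfer RNA is not known.

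The genes whose levels followed the members most closely were ranked by the Spearman correlation of log2(RPKM + 1) with the mean of the 10 members over 17 libraries, as a description. The highest among tested genes with a symbol were PCBP2 (0.973), GSC (0.956), ND4L (0.951), RTRAF (0.941) and PABPC1 (0.934). PCBP2 encodes a poly(C)-binding protein, PABPC1 the cytoplasmic poly(A)-binding protein and GSC a homeobox factor. Over the 11 libraries without WNT5A 4, 12 and 14 and control 2, 3 and 6 the values were 0.964, 0.900, 0.909, 0.882 and 0.891. PABPC1 averaged 599.98 RPKM in WNT5A libraries 4, 12 and 14 and 156 RPKM in the other 5. Genes of a library share its depth and scaling, and these 5 were picked as the highest among all tested genes with a symbol. Among the members themselves the correlation with the same mean, which includes them, was 0.988 for ND1 and ND6 and lowest for COX3, at 0.794, which was 0.855 over the 11 libraries.

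Nuclear genes that act on mitochondrial RNA did not pass in either direction. Of 16 tested genes of mitochondrial DNA transcription and replication, 10 were above 0 and 6 below, with a list median of 0.07 (-0.03 without the 6 libraries). All tested genes had a median of 0.11 with all libraries, and 62.3% of them were above 0. PRIMPOL, a primase and polymerase, had a log2 difference of 1.03 ± 0.40 (SE; adjusted p = 0.673 by limma), which was 0.39 without the 6 libraries, and RNASEH1, which removes RNA from hybrids, had -0.42 ± 0.19 (SE; adjusted p = 0.676 by limma), then -0.04. Of 20 genes of mitochondrial RNA processing, stability and decay, 8 were above 0 and 12 below (median -0.05, and 0.03 without the 6 libraries). ERAL1, a chaperone of the small ribosomal RNA, had 0.30 (0.27 without the 6 libraries), and LRPPRC, which stabilises mitochondrial messengers, had 0.42, averaging 46.7 RPKM in WNT5A libraries 4, 12 and 14 and 22.4 RPKM in the other 5. LRPPRC had -0.18 without the 6 libraries.

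Regulators of mitochondrial biogenesis numbered 11 tested, 9 above 0, with a median of 0.12, which was -0.02 without control libraries 2, 3 and 6 and -0.09 without all 6. Among them YY1 had 0.60 (-0.18 without the 6 libraries) and the coactivator PPARGC1B 0.36, also -0.18 without them. Of 14 translation factors 9 were above 0 (median 0.10, and 0.03 without the 6 libraries), with TUFM, the elongation factor Tu, at -0.26 (-0.04 without the 6 libraries) and MTIF2, an initiation factor, at 0.52 (0.17 without them). Of 37 assembly factors 17 were above 0 (median -0.09, and 0.03 without the 6 libraries), with COX20, which helps insert COX2, at 0.73 (0.24 without the 6 libraries) and SCO2, a copper chaperone for COX2, at -0.43 (0.05 without them). Of 16 genes of quality control and oxidative stress 8 were above 0 (median -0.02, and -0.01 without the 6 libraries), with FIS1, a fission factor, at -0.43 (-0.12 without the 6 libraries) and the chaperonin HSPD1 at 0.32 (0.12 without them).

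The protein partners of the mitochondrially encoded subunits had lower fitted values. Of 77 tested nuclear-encoded subunits of complexes I, III, IV and V, 66 were below 0 and 11 above, with a median of -0.23. Of all tested genes 62.3% were above 0, with a median of 0.11. The median was -0.04 without control libraries 2, 3 and 6 and 0.03 without all 6. ATP5ME had -0.60 ± 0.27 and COX5B -0.46 ± 0.21 (SE; adjusted p = 0.676 by limma for both), and -0.12 and -0.07 without the 6 libraries. Of 75 mitoribosomal protein genes 65 were below 0 (median -0.19, and 0.01 without the 6 libraries), with MRPS7 at -0.31 (-0.02 without them) and MRPL41 at -0.42 (-0.05 without them). None of the genes in these lists passed the limma threshold, and 9 of the 266 tested had an unadjusted p under 0.05, a level reached by 7.35% of all tested genes.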

How the data were processed

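Messenger RNA of 17 pools of 10 bovine morulae was sequenced with a stranded kit, per the labels' protocols. The submitters' processing notes name FastQC, HISAT2, featureCounts and edgeR, without versions, and assembly ARS-UCD1.2. The authors deposited RPKM values per gene and library, each group's mean RPKM, and their own comparison with log2 fold change, a likelihood ratio score, p-value and FDR, together with gene length. Every RPKM value was a whole multiple (tolerance 0.001) of the value of 1 read, which gave reads per gene. Library-to-library correlations were 0.849 to 0.988, and no 2 libraries were identical.

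Because RPKM values are not counts, limma 3.58.1 (R 4.3.3) was run on log2(RPKM + 1), WNT5A minus control, with trend and robust settings. Genes at 0.5 RPKM or more in at least 8 libraries entered, 12415 of 17167, with Benjamini-Hochberg adjustment over all of them. Fold changes on this scale understate the change of low genes. Fits that leave out libraries asked for as many libraries as the smaller remaining group. Named genes were all members, the other mitochondrial messengers, 2 per list by smallest p, and the 5 most correlated genes. The members and lists were chosen with earlier results of these data known. Alternatives changed the pseudocount, filter, scaling and libraries. Mitochondrial rows without a symbol were named from RefSeq (ARS-UCD2.0) by start, end and length. Counting error, where given, covers the counting of reads only and not the spread between pools.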

Additional observations from a re-analysis of the deposited data

Results flagged for a closer look

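In 6 members control library 6 lay far from the other 8 controls, by a gap to its nearest neighbour that exceeded Dixon's 95% critical value of 0.493 for 9 samples. ND1 stood there at 1203 RPKM with the next control at 575 RPKM, and ND2 at 1180 RPKM with the next at 702 RPKM. ATP6 stood at 6387 RPKM with the next control at 3677 RPKM, and ND5 at 729 RPKM with the next at 411 RPKM. ND6 stood at 1287 RPKM with the next control at 617 RPKM, and CYTB at 2514 RPKM with the next at 1485 RPKM. Chance gives about 1 in 20 such results if values are normally distributed, and 22 groups of values were examined. The rule was applied to RPKM and not to log2(RPKM + 1), the scale of the fits. A high value stands out less on that scale, so these flags hold for RPKM only. The 6 values come from 1 library, so they are not independent of each other. Library 6 was also among the 3 controls with the fewest genes detected, 11268, and the part of that in these values was not tested.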

How the results depend on the processing

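No member passed the threshold under any setting. The count of all genes past it was 1, and it was 0 with no filter, with a pseudocount of 5, after quantile normalisation, without WNT5A libraries 4, 12 and 14, without control libraries 2, 3 and 6, without all 6, and with the replicate number as a block; leaving out 1 library gave 0 to 2. Quantile normalisation moved the median of all tested genes to -0.01 and put ATP6 at -0.0013 and COX3 at -0.40, and a pseudocount of 0.1 moved that median to 0.22. Without WNT5A libraries 4, 12 and 14 the log2 changes were -0.38 for ND1, -0.26 for ND2, -0.40 for ND4, -0.37 for ND5, -0.52 for ND6, -0.28 for COX1, -0.20 for COX2 and -0.40 for ATP6. Without control libraries 2, 3 and 6, COX3 and CYTB were both at 0.16. Without all 6, values were -0.13 for ND1, -0.10 for ND2, -0.22 for ND4, -0.23 for ND5, -0.29 for ND6, -0.11 for COX1, -0.0515 for COX2, -0.14 for ATP6 and 0.0229 for COX3. Leaving out 1 library gave -0.0842 to 0.23 for ND5, -0.13 to 0.28 for ND6, -0.20 to 0.0402 for COX3, -0.17 to 0.0820 for CYTB and -0.0427 to 0.25 for ATP6, and, with no change of sign, 0.24 to 0.69 for ND1, 0.0913 to 0.47 for ND2, 0.17 to 0.61 for ND4, 0.0505 to 0.35 for COX1 and 0.0463 to 0.27 for COX2; the sign changed on leaving out WNT5A library 1, 4, 11, 12 or 14 or control library 1 or 6. The members' median was 0.0018 to 0.27 over these, against 0.13 with all libraries. The difference in summed share of reads was -0.31 percentage points without WNT5A libraries 4, 12 and 14, 0.42 without control libraries 2, 3 and 6, -0.0955 without all 6, 0.0361 to 0.344 on leaving out 1 library and -0.05 as a share of summed RPKM. Beyond the libraries left out, the cause was not tested. Numbers 1, 2, 4 and 10 occur in both groups, and deviations of same-numbered libraries correlated at 0.216, 0.0571, 0.0217 and 0.109, which were not all above 0.1, so the numbers were not used as pairs in the main comparison; 3 of the 4 numbers correlated best with their own, a hint from the data and not from the labels. With the replicate block COX3 was at 0.0369 and CYTB at 0.0930. That fit, also for the count of genes past the threshold, rests on libraries numbered 1, 2, 4 and 10 alone. Libraries whose number occurs in 1 group only add nothing to its estimates. Counting error was small for the members, and in the 3 shallowest libraries 3 reads of a transfer RNA row are 0.789 to 1.27 RPKM, depending on the row.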

Other observations

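Other transfer RNA rows of the table, all on the minus strand, were low apart from 1. ENSBTAG00000043565 and ENSBTAG00000043583 had no reads in WNT5A libraries 4, 12 and 14, and ran at 0.30 to 2.58 and 0.41 to 4.48 RPKM in the other 5 WNT5A libraries. In libraries 4, 12 and 14, 3 reads of these rows would be 0.80 to 1.17 and 0.83 to 1.22 RPKM. The lowest values of the other 5 lay below that, so depth limits what the absence of reads can show. ENSBTAG00000043582, which lies downstream of CYTB, averaged 103 RPKM in WNT5A pools (SD 55.9, n = 8) and 83.8 RPKM in control pools (SD 45.0, n = 9). ENSBTAG00000043573 had 31 reads in WNT5A library 4 and none in WNT5A libraries 12 and 14, and 10 reads over the 9 controls.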
